A study of Mus musculus with 5 samples.

Results

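The genes described here are MYC transcription factors with their partners and a set of nucleolar proteins, measured in mouse bone marrow pro-B cells with and without Mef2c. Members were the probe sets whose annotated gene symbol was Myc, Mycn, Max, Mxd4, Myb, Ncl, Npm1, Fbl, Nop56 or Nop58. All 10 genes were found, each with 1 probe set, among 17323 genes named by the 23809 probe sets tested. The comparison asked which pathways depend on MEF2C, a transcription factor of lymphoid and muscle cells, in early B-cell progenitors. Pro-B cells were sorted by FACS as B220+IgM-CD43+CD24+ cells, and their RNA was hybridised to Affymetrix Mouse Genome 430 2.0 arrays, 1 array a sample. The 3 control and the 2 Mef2c-deficient samples came from mice that were 9 months old. The deficient mice were Vav-Cre Mef2cfl/fl, in which Cre acts throughout the haematopoietic system, so that non-B blood cells had lost Mef2c as well. The control arrays were labelled only as control. The methods give Mef2cfl/fl, Mef2cfl/+ and Vav-Cre Mef2cfl/+ mice as controls, and which of these a given array held was not given in the sources used here. The methods call the control and deficient samples independent, without saying that each came from a separate animal. The labels do not say so either, so p-values measure the spread between these samples, which may be technical.

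MYC and its relative MYCN bind DNA as dimers with MAX and switch on genes for growth, among them many genes for making ribosomes. MXD proteins compete for MAX and repress such genes, and MYB is a separate transcription factor that early B-cell progenitors need. Ribosomes are assembled in the nucleolus, where RNA polymerase I transcribes ribosomal RNA and small nucleolar RNA particles modify it. Among the nucleolar members, NCL and NPM1 bind RNA and assist assembly, whereas FBL, NOP56 and NOP58 form the protein core of the box C/D particles that methylate ribosomal RNA.

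Values are given as deposited, on a linear scale that appeared to be e raised to the log2 RMA signal, since their natural logs ran from 1.15 to 14.7. A 2-fold difference in deposited values therefore corresponded to a 1.62-fold difference in signal. Calls of lower or higher required a fold change of at least 2 in deposited values and an unadjusted limma p of at most 0.05. The study states the same thresholds for fold and p. On the scale read above, a fold of 2 in deposited values is laxer than 2 in signal. The methods also exclude probes by detection calls, and no such filter was run here. By the rule used here 13.5% of all probe sets were called lower (3206) and 10.1% higher (2401). With a fold of 2 in signal 8.51% (2025) were called lower and 4.57% (1089) higher. After Benjamini-Hochberg adjustment in limma the smallest p over all probe sets was 0.102, so 0 of 23809 passed at 0.05 or at 0.10, while 7038 (29.6%) had an unadjusted p of at most 0.05. The 95% limma intervals printed below exclude 0 where the unadjusted p is under 0.05. The calls thus apply the study's numbers for fold and p to deposited values, without control of false discovery. With 3 arrays against 2, an exact permutation test cannot go below a one-sided p of 0.1. Array scaling shifted the balance of calls: centring arrays on their medians gave 4690 lower and 1558 higher, and centring them on housekeeping genes gave 754 and 10916. The median log2 fold change of all probe sets was 0.19 as deposited and moved to -0.044 and 0.98 under these scalings.

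Mef2c itself measured 14006, 20854 and 17220 on the control arrays and 7379 and 6219 on the deficient arrays. It was lower on both deficient arrays, by 1.34 on the log2 scale (SE 0.28, limma adjusted p = 0.103), and its signal did not vanish. The call was lost after further quantile normalization (-0.43), after cyclic loess (-0.32) and with arrays centred on housekeeping genes (-0.54). Where its probe set lies relative to the deleted exon was not given in the sources used here. The B-lineage markers (9 of 12 measured) summed to between 1038810 and 1706340 on the control arrays and to 1422450 and 711461 on deficient arrays 1 and 2, and none of them lay below the lower quartile of any array. Markers of other blood cells were present on all arrays and differed between the deficient arrays. On deficient replicate 2 the T and NK cell markers (11 of 12 measured, Cd8a below the median of each array) summed to 46297, against 13742 to 20376 on the control arrays and 8682 on deficient replicate 1. Their median on replicate 2 was 4.45-fold that on the other arrays, compared with 1.91-fold for plasmacytoid dendritic cell markers (8 of 10) and 0.537-fold for B-lineage markers. The plasmacytoid sum there (120630) lay within the control range (97240 to 258465), and control 2 also had a low B-lineage median (0.689-fold). On deficient replicate 1 the medians were 0.515-fold (T and NK), 0.393-fold (plasmacytoid), 0.457-fold (myeloid), 0.839-fold (erythroid) and 1.20-fold (B-lineage). The erythroid list had a median of 5.81-fold on replicate 2 (5 of 8 measured, Klf1 and Epb4.2 below the median of each array), although its sum was lower there (16984, against 41823 to 73190 on the control arrays). Myeloid markers (10 of 10) summed to between 2323200 and 4842460 on the control arrays and to 2501880 and 5713240 on the deficient arrays. On deficient replicate 1 the median of 8 hybridisation control probe sets lay 1.97 log2 units above the mean of the arrays, against -1.55 to 0.064 on the other 4. Between 743 and 4182 probe sets had identical values on a given pair of arrays. The part of these differences in the results below was not tested.

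Of the 10 genes, 6 were called lower in Mef2c-deficient pro-B cells and 0 were called higher, against 13.5% and 10.1% of all probe sets. The 6 were Myc and all 5 nucleolar genes. The remaining 4, Mycn, Max, Mxd4 and Myb, were not called. In 6 genes both deficient arrays lay below all control arrays, in 2 they lay above all of them, and in 2 the groups overlapped; over all probe sets 51% did not overlap, 23.5% below and 27.5% above. With a fold of 2 required in signal, the same count of 6 was lower and 0 higher, against 8.51% and 4.57% of all probe sets. The median log2 fold change was -1.59 over the 10 genes and 0.19 over all probe sets.

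**Figure D1:**
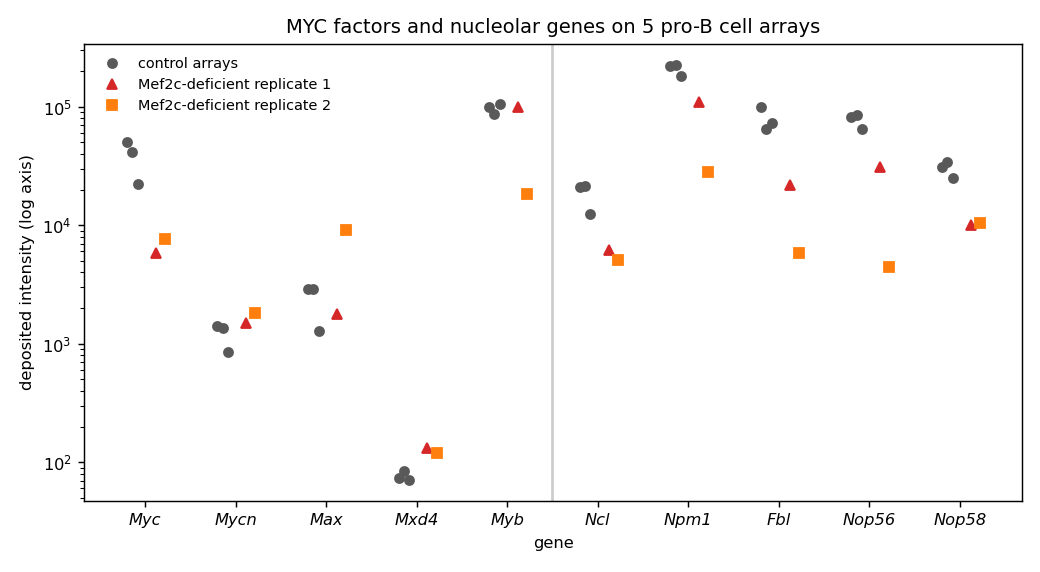
Deposited intensity (log axis) of the 10 genes on each of the 5 arrays, with control arrays as circles, Mef2c-deficient replicate 1 as triangles and replicate 2 as squares. For Myc and the 5 nucleolar genes both deficient arrays lie below all 3 control arrays, while for Max and Myb the groups overlap.

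Myc, the growth-promoting factor after which the family is named, measured 50348, 41281 and 22264 on the control arrays and 5783 and 7696 on the deficient arrays. The deficient arrays were close to each other, and the higher of them was 2.89-fold below the lowest control. Myc fell by 2.43 on the log2 scale (SE 0.43, 95% interval -3.55 to -1.31, limma adjusted p = 0.102), which is 5.38-fold in deposited values and 3.21-fold in signal. The fall was called with any 1 array left out and under each of the 4 other scalings tried.

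Mycn, the relative that can stand in for Myc in lymphoid progenitors, measured 1397, 1369 and 844 on the control arrays and 1484 and 1798 on the deficient arrays. Both deficient arrays lay above the 3 control arrays, by a small margin over the 2 highest. The difference was 0.48 on the log2 scale (SE 0.33, 95% interval -0.38 to 1.33, limma adjusted p = 0.326) and was not called. It was called higher after further quantile normalization (1.12), after cyclic loess (1.13) and after centring on housekeeping genes (1.28). The ratio of Myc to Mycn on the same array does not depend on how arrays are centred. Relative to the control mean, its log2 was 0.24, -0.021 and -0.22 on the control arrays and -2.97 and -2.84 on the deficient arrays, so that Myc relative to Mycn was 7.49-fold lower in deposited values.

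Max encodes the shared dimer partner of MYC and MXD proteins. Its values were 2877, 2877 and 1278 on the control arrays and 1784 and 9121 on the deficient arrays, and the identical first 2 values are among those shared by control replicates 1 and 2. Deficient replicate 1 lay within the control range and replicate 2 was 5.11-fold above replicate 1, so the difference of 0.88 (SE 0.82, limma adjusted p = 0.44) was not called. Without deficient replicate 2 it was -0.30. Mxd4, a MAX partner that represses, gave a dim probe set below the median of every array. It measured 73.9, 84.2 and 70.7 on the control arrays and 132 and 119 on the deficient arrays. Both deficient arrays were above all controls by a 1.65-fold mean difference, which stayed under the fold threshold (log2 0.72, SE 0.23, limma adjusted p = 0.135). With arrays centred on housekeeping genes it was called higher (1.52), a setting in which 45.8% of all probe sets were.

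Myb measured 98719, 86987 and 105232 on the control arrays, 99864 on deficient replicate 1 and 18258 on replicate 2. The first deficient array thus lay inside the control range and the second 5.47-fold below the first. The difference of -1.18 (SE 0.75, 95% interval -3.11 to 0.76, limma adjusted p = 0.297) was not called. It was 0.047 without replicate 2 and -2.40, called lower, without replicate 1. The low Myb value thus came from the array on which the medians of T and NK cell and erythroid markers were high and that of B-lineage markers low. Whether these are related was not tested.

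Among the nucleolar genes, Ncl (nucleolin, which binds ribosomal RNA precursors) measured 20865, 21273 and 12400 on the control arrays and 6161 and 5108 on the deficient arrays. Both deficient arrays were less than the lowest control, and Ncl fell by 1.65 on the log2 scale (SE 0.34, limma adjusted p = 0.103), or 2.21-fold in signal. Nop58, a core protein of box C/D particles, measured 30893, 34214 and 24891 on the control arrays and 10103 and 10464 on the deficient arrays. Here the deficient arrays were nearly equal, and Nop58 fell by 1.53 (SE 0.26, limma adjusted p = 0.102), or 2.09-fold in signal.

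In the other 3 nucleolar genes both deficient arrays were low, but replicate 2 was much the lower. Npm1 (nucleophosmin, a histone and ribosome chaperone) measured 222279, 225910 and 182470 on the control arrays and 109210 and 27994 on the deficient arrays, a fall of 1.92 (SE 0.62, limma adjusted p = 0.135). Fbl, the methyltransferase of the box C/D particle, measured 98458, 64283 and 73434 on the control arrays and 21966 and 5844 on the deficient arrays. This fall of 2.77 (SE 0.62, limma adjusted p = 0.106), or 3.79-fold in signal, was the largest of the 10 genes. Nop56, the partner of NOP58 in the same particle, measured 81613, 84776 and 65420 on the control arrays and 30776 and 4416 on the deficient arrays, a fall of 2.72 (SE 0.85, limma adjusted p = 0.132). Deficient replicate 1 alone still gave -1.82 for Fbl and -1.32 for Nop56, both called, and -0.94 for Npm1, under the fold threshold, while replicate 2 alone gave -3.73, -4.12 and -2.90.

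As a group, the 5 nucleolar genes had a median log2 fold change of -1.92, and 5 of 5 were called lower. The direction held under the 4 other scalings, with medians from -2.15 to -1.11, but the number called was 2 after further quantile normalization, 1 after cyclic loess, 1 after centring on housekeeping genes and 5 after centring on medians. Fbl was called in each of these scalings, in which 7.69%, 7.69%, 3.17% and 19.7% of all probe sets were called lower. Leaving out any 1 control array left 3 called, where 9.08% to 10.2% of all probe sets were called lower. Npm1 (-2.02 to -1.86) and Nop56 (-2.83 to -2.65) kept their size there but missed the p threshold.

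**Figure D2:**
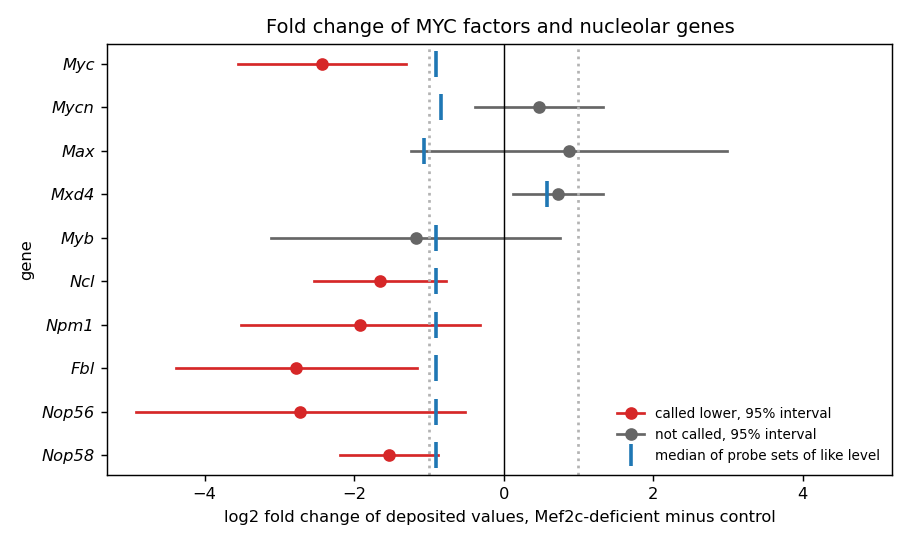
Log2 fold change of deposited values, Mef2c-deficient minus control, for the 10 genes, as points with 95% limma intervals; dotted lines mark a fold of 2 and blue ticks the median of probe sets of like level. Myc and Fbl lie at -2.43 and -2.77 with intervals wholly below the blue tick, whereas the intervals of Mycn, Max and Myb cross 0.

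The 2 deficient arrays did not differ from the controls to the same degree. Relative to the control mean, Myc was 6.56-fold lower on replicate 1 and 4.93-fold lower on replicate 2, and Ncl and Nop58 were also alike on both. For Fbl, Nop56, Npm1 and Myb the value on replicate 2 was 3.76-, 6.97-, 3.9- and 5.47-fold below that on replicate 1. Max ran the other way.

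**Figure D3:**
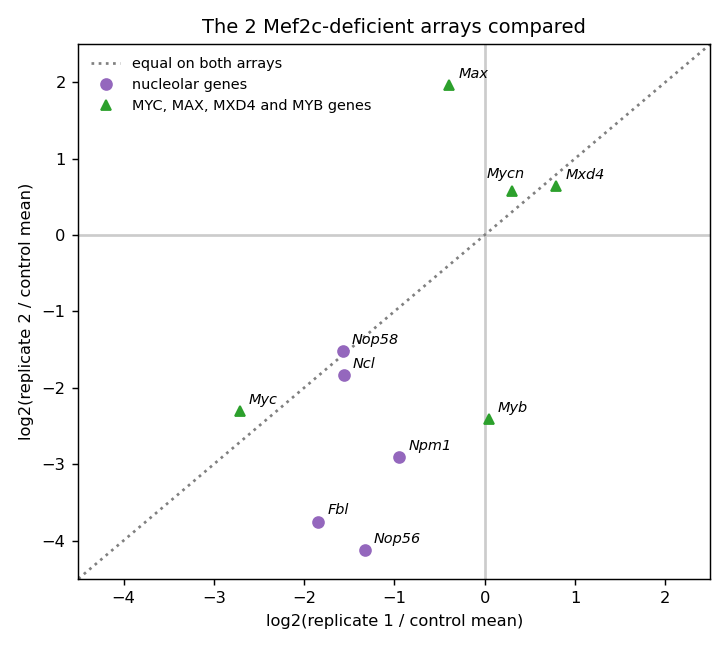
Log2 ratio to the mean of the 3 control arrays on Mef2c-deficient replicate 1 (horizontal) and replicate 2 (vertical), nucleolar genes as circles and the transcription factors as triangles; the dotted line marks equal values. Myc, Ncl, Nop58, Mycn and Mxd4 lie near the line, Fbl, Nop56, Npm1 and Myb below it and Max above it.

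Fold changes in this comparison varied with level, so the genes were also set beside probe sets of like brightness, with all probe sets ranked by mean log2 value and split into 10 groups of equal size. In the brightest group 31.8% of probe sets were called lower and 0.252% higher, and the median log2 fold change was -0.90. This group held 7 of the genes, namely Myc, Myb and the 5 nucleolar genes, of which 6 were called lower. Only 1.26% of the group had a fold change as low as that of Myc, 0.63% as low as that of Fbl and 0.756% as low as that of Nop56. Npm1 (6.51%), Ncl (12.5%), Nop58 (16.5%) and Myb (32.8%) lay nearer the middle of the group. Mycn and Max stood high in theirs, at percentiles 83.5 and 97.4, where the group medians were -0.84 and -1.07. In the group of Mycn 27.3% of probe sets were called lower and 2.65% higher, and in that of Max 38.5% and 0.63%. Mxd4 lay at percentile 57.8 of a dim group whose median was 0.58.

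**Figure D4:**
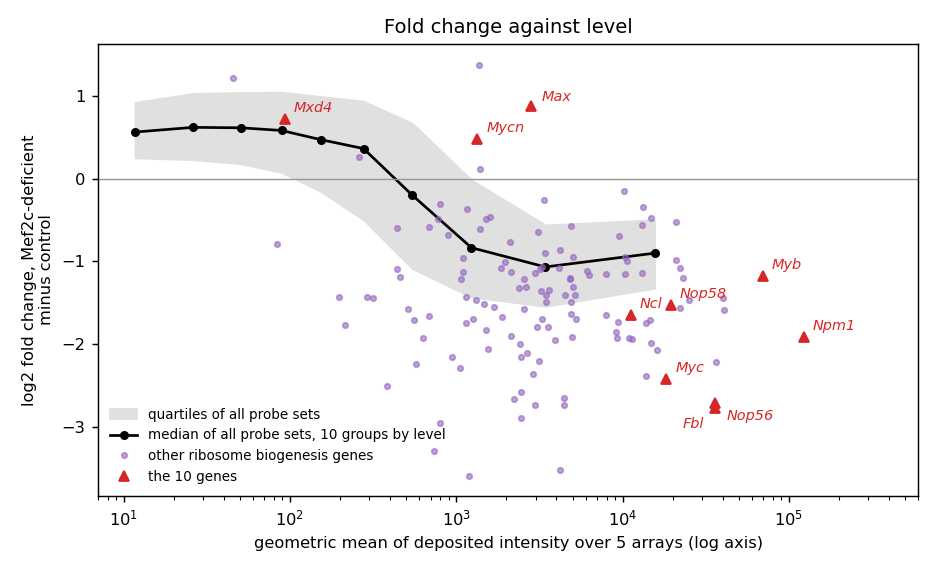
Log2 fold change of deposited values, Mef2c-deficient minus control, against the geometric mean of the deposited intensity over 5 arrays (log axis). The black line joins the medians of 10 groups by level, from 0.56 in the dimmest to -0.90 in the brightest, the grey band spans the quartiles, small points are other ribosome biogenesis genes and triangles the 10 genes, of which Myc, Fbl and Nop56 lie farthest below the line.

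Promoter sequence was at hand for 7 of the 10 genes, as windows from 250 bases before to 50 after the RefSeq start on GRCm38.p6. Myc, Npm1 and Fbl had no window in the table. Each was searched on both strands for the E-box CACGTG, the site that MYC-MAX and MXD-MAX dimers bind, for CCAAT and for a MEF2 site written as CTA and TAG with any 4 bases between them. Max and Mxd4 held an E-box, as did 7.15% of all 32851 windows. In Max, which was not called, it spans the start itself, with 3 bases on either side; in Mxd4 it begins 219 bases before the start. CCAAT was found in Nop56 and, at 2 places, in Mxd4, and in 37.4% of all windows. The MEF2 site was in none of the 7 and in 3.69% of all windows. A match is only a match of letters and shows no binding. The stretches that hold the E-boxes of Max and Mxd4 and the CCAAT of Nop56, which lies on the opposite strand and reads ATTGG, are shown 5′ to 3′ on the strand of the gene, with the match in capitals, and beside Nop56 the bases just before the start of Ncl and Nop58, both lower in deficient cells, which hold none of the 3 motifs. They lie at chr12:76962246-76962348 (minus strand) for Max, chr5:34187861-34187960 (minus) for Mxd4, chr2:130274312-130274411 (plus) for Nop56, chr1:86359456-86359555 (minus) for Ncl and chr1:59684906-59685005 (plus) for Nop58, and all but the last 3 bases of the Max stretch are upstream of the start.
Max: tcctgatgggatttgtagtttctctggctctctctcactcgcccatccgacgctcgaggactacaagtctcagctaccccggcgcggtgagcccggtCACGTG
Mxd4: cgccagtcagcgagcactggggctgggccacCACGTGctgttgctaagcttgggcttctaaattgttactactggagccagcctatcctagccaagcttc
Nop56: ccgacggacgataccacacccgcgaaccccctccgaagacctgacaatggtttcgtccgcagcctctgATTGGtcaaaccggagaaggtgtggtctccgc
Ncl: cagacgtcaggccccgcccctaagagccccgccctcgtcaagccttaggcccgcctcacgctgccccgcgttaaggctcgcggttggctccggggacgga
Nop58: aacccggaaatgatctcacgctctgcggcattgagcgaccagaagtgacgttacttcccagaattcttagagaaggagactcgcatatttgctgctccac

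The wider network of MYC and MAX partners was described by a list of 24 genes, of which 23 were measured. In it 10 genes were called lower (43.5%), 0 higher and 13 not called, with a median log2 fold change of -1.13. Among all named genes 16.6% were called lower and 9.56% higher, with a median of 0.043. The list had a median level percentile of 79.4. In level groups 8, 9 and 10, the brightest, 27.3%, 38.5% and 31.8% of probe sets were called lower. The median difference of the network genes from the medians of probe sets of like level was -0.39. Of the called genes, the 6 with the greatest change were cofactors or regulators of MYC and the MAX relative Mlx. Kat5, the TIP60 acetyltransferase, fell by 2.71 (SE 0.82, limma adjusted p = 0.127), with 1754, 780 and 1585 on the control arrays and 459 and 85.7 on the deficient arrays. Its call was lost without control replicate 1 (-2.49), control replicate 3 (-2.56) or deficient replicate 2 (-1.50). Ruvbl2 and Ruvbl1, paired ATPases of chromatin complexes that also help to assemble box C/D particles, changed by -2.30 and -2.12, and Ruvbl1 by -1.34 without deficient replicate 2. Huwe1, a ubiquitin ligase of MYC, changed by -2.23, Mlx, a dimer partner of MXD and Mondo proteins, by -1.63 and Wdr5, a chromatin adaptor that contacts MYC, by -1.62. The MAX partners on the list that repress, named after their values were seen, were not called in the main fit and did not run one way. Mxd1 (0.77), Mxd3 (0.44), Mxi1 (0.14) and Mnt (0.66) were above 0 and Mga (-1.36) was below. Mxd1 measured 2037 on deficient replicate 1, within the control range (1703 to 6380), and 16472 on replicate 2. Mxd3 was called higher after further quantile normalization (1.23), cyclic loess (1.22) and centring on housekeeping genes (1.23). Centring on housekeeping genes also gave a higher call for Mnt (1.46), and centring on medians a lower call for Mga (-1.59). The list's median kept its sign under the 4 other scalings (-1.37 to -0.34). After further quantile normalization or cyclic loess, however, only 4 genes were called lower and 1 higher. Over all probe sets 7.69% were lower in either setting, and 8% and 6.68% higher. With arrays centred on housekeeping genes 4 were lower and 5 higher, where 3.17% of all probe sets were lower and 45.8% higher. Without deficient replicate 2 the list's median was -0.74, against 0.094 over all probe sets.

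Ribosome biogenesis was described by 132 genes, of which 128 were measured and 78 (60.9%) were called lower, 2 higher and 48 not called. Among all named genes 16.6% were lower and 9.56% higher, and among probe sets of the 3 brightest groups, where most of these genes lie, 27.3%, 38.5% and 31.8% were lower. Without the members the count was 73 of 123 (59.3%), with a median of -1.43. The log2 fold change was negative in 124 of the 128, and in 103 both deficient arrays lay below all controls. Among all 17323 named genes, 8429 were negative and in 4919 both deficient arrays lay below all controls. In the 3 brightest groups 75.4%, 88.3% and 91% of probe sets were negative, and 45.3%, 61.2% and 61.2% lay below all controls. The 128 genes had a median of -1.44, against 0.043 over all named genes. It lay 0.61 below the medians of probe sets of like level. The medians on deficient replicates 1 and 2 alone were -1.32 and -1.51. After further quantile normalization 33 were called lower, after cyclic loess 29 and with arrays centred on housekeeping genes 21, against 7.69%, 7.69% and 3.17% of all probe sets, and the median was negative in each (-0.77, -0.64 and -0.64). Of the 33, 4 were genes of small nucleolar RNA particles, 0 of RNA polymerase I and 29 of precursor processing and assembly. In the main fit these lists had 12, 6 and 60 called lower, members included.

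Of the proteins that make up or assemble small nucleolar RNA particles, apart from the members, 9 of 14 (64.3%) were called lower and 1 higher, against 16.6% and 9.56% of all named genes and 27.3% to 38.5% lower in the 3 brightest groups. Znhit6, an assembly factor of box C/D particles, fell by 3.59 (SE 0.74, limma adjusted p = 0.103), from 4462, 2903 and 2593 on the control arrays to 593 and 121 on the deficient arrays. Nolc1, a chaperone of these particles, changed by -2.96, with 572 and 94.5 on the deficient arrays, and by -1.66 without deficient replicate 2. Znhit3, another assembly factor, changed by -1.57, with 1993 and 875 on the deficient arrays, and its call was lost without control replicate 1 (-1.45), control replicate 2 (-1.54) or deficient replicate 2 (-0.98). In the H/ACA particles, which convert uridine to pseudouridine, the synthase Dkc1 changed by -1.99 and its core partners Gar1 and Nop10 by -1.59 and -1.56. Shq1, which accompanies DKC1 before it enters the particle, was the gene that rose (1.38, SE 0.31, limma adjusted p = 0.106), with 1101, 889 and 815 on the control arrays and 1939 and 3009 on the deficient arrays. It was named after its value was seen.

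The RNA polymerase I genes were the machinery that makes the precursor itself. Without Ncl, 5 of 16 were called lower (31.2%) and 0 higher. This share lay above the 16.6% of all named genes but was near that of the 3 brightest groups (27.3%, 38.5% and 31.8%). The genes had a median of -1.09 that lay close to that of probe sets of like level (difference -0.14). The 5 were Tcof1 (treacle, -1.92), the polymerase subunits Polr1d (-1.74), Polr1a (-1.10) and Znrd1 (-1.08), and Taf1d (-1.64), a part of the selectivity factor at ribosomal DNA promoters. Polr1d changed by -1.16 without deficient replicate 2, and the call of Znrd1 was lost without that array (-0.82) or control replicate 3 (-0.96). Polr1a measured 4248, 4130 and 4609 on the control arrays and 1942 and 2103 on the deficient arrays, so its spread within groups was small. Its fold change lay at percentile 47.9 of its level group, whose median was -1.07. Over 12 other settings that kept all arrays it ranged from -1.33 to -0.18.

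Among the 93 genes of precursor processing and subunit assembly other than Npm1, 59 (63.4%) were called lower and 1 higher, against 16.6% and 9.56% of all named genes and 27.3% to 38.5% lower in the 3 brightest groups. The largest fall among those called was that of Pes1, needed for the large subunit, at -3.53 (SE 1.04, limma adjusted p = 0.124), with 10342, 6865 and 19673 on the control arrays and 2890 and 324 on the deficient arrays. Its call was lost without control replicate 1 (-3.59), control replicate 3 (-3.12) or deficient replicate 2 (-1.95). Nob1, the nuclease that trims small-subunit RNA, changed by -3.29, with 509 and 68.0 on the deficient arrays, and by -1.84 without replicate 2. Utp18, a component of the small-subunit processome, changed by -2.90, with 1349 and 398 on the deficient arrays. Dnttip2 (-2.74) and the small-subunit factor Rrp7a (-2.67) rested mainly on deficient replicate 2. Dnttip2 measured 10008, 7454 and 11367 on the control arrays and 4692 and 427 on the deficient arrays, and Rrp7a 7135, 4091 and 3456 and then 1851 and 291. Without replicate 2 they were at -1.01 and -1.33, and either call was kept in only 1 of the 5 fits that left out an array, the one without deficient replicate 1 (-4.47 and -4.00). In the other fits, without control replicates 1, 2 and 3, the values were -2.70, -2.91 and -2.61 for Dnttip2 and -2.36, -2.76 and -2.88 for Rrp7a. Rrs1, a large-subunit assembly factor, changed by -2.74 (SE 0.29, limma adjusted p = 0.102), with 7962, 6070 and 5278 on the control arrays and 1063 and 848 on the deficient arrays. Its known binding partner Rpf2 was the gene that rose (1.22), on a dim probe set that measured 28.5 to 40.1 on the control arrays and 93.1 and 61.4 on the deficient arrays. In its level group 18.1% of probe sets were called higher and the median was 0.62, and Rpf2 lay at percentile 82.7. Rpf2 too was named after its value was seen.

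Other genes widely used as MYC targets, outside the nucleolus, had 16 of 30 measured genes (53.3%) called lower and 0 higher, against 16.6% and 9.56% of all named genes and 31.8% and 0.252% of the brightest probe sets, among which most of them lie. All 30 had a negative fold change, with a median of -1.30, and 91% of the brightest probe sets were negative. Srm, the spermidine synthase, fell by 2.41 (SE 0.65, limma adjusted p = 0.116), with 31352, 16381 and 7619 on the control arrays and 3554 and 2465 on the deficient arrays, and its call was lost without deficient replicate 1 (-2.68) or 2 (-2.15). The mitochondrial genes Shmt2 (serine hydroxymethyltransferase), C1qbp and Hspd1 (chaperonin) changed by -2.25, -2.08 and -2.03. Eif4e, the cap-binding translation factor, changed by -1.91 and Prps2, which makes the precursor of nucleotides, by -1.81, with 12193 and 4642 on the deficient arrays. Prps2 was at -1.11 without deficient replicate 2, and its call was lost without control replicate 3 (-1.64). These genes are bright, and the list's median lay 0.38 below that of probe sets of like level. After further quantile normalization 5 of the 30 were called lower, after cyclic loess 2 and with arrays centred on housekeeping genes 5. Over all probe sets 7.69%, 7.69% and 3.17% were called lower in these settings. After cyclic loess the list's share was thus the smaller one. The list's medians in these settings were -0.64, -0.35 and -0.50.

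**Figure D5:**
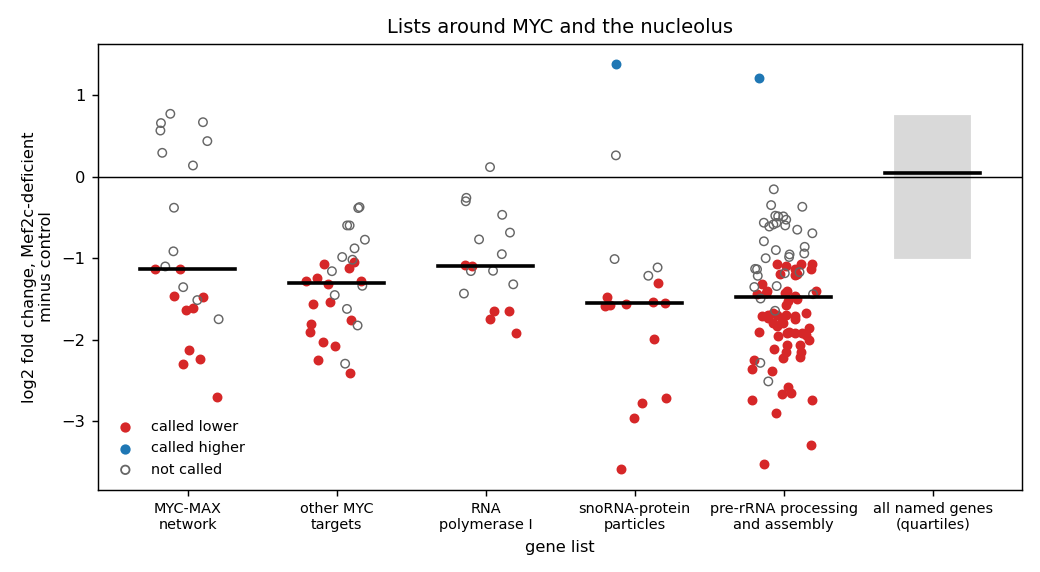
Fold change (log2, deficient over control, deposited scale) of the measured genes of 5 lists, with filled circles for called and open circles for not called genes and a bar at the list's median; the grey box spans the quartiles of all 17323 named genes. The list medians run from -1.56 (particles of small nucleolar RNA) to -1.10 (RNA polymerase I), against 0.043 for all named genes, and the 2 genes called higher are Shq1 and Rpf2.

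In the promoter windows of these genes, the E-box was found in 19 of 107 ribosome biogenesis genes with a window (17.8%), against 8.09% of all 27025 genes. It was present in 12 of 63 that were called lower (19.0%) and in 6 of 42 that were not called (14.3%), a description of letters without a test. The MEF2 site was in 4.67% of the ribosome biogenesis genes and in 4.23% of all genes.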

How the data were processed

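The data were a table of 23835 probe sets on 5 arrays (3 control, 2 Mef2c-deficient). The authors processed the arrays by RMA and deposited linear intensity values, which appeared to be e raised to the log2 signal: 314 to 430 values per array exceeded 65535, the limit of a 16-bit scanner. The number of arrays limits the precision. The 26 hybridisation control probe sets were left out, and log2 of the deposited values of the other 23809 was fitted with limma 3.58.1 (R 4.3.3; lmFit, eBayes), with Benjamini-Hochberg adjustment over all of them. Symbols came from the platform annotation: 17621 probe sets had 1, 516 several and 5672 none, and only the first were named; of several probe sets for a list gene, the one with the highest mean was used. Errors are limma standard errors and 95% intervals.

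Named are all 10 genes, Mef2c, and of each list up to 6 called genes with the largest change. The members and lists were chosen with earlier results of these data known, so their counts are descriptions. Alternatives were 4 array scalings, other thresholds, filters and variance models, the unpaired test of the methods, a replicate block and leaving out each array. The limma steps were tested on simulated data. Figures were drawn with matplotlib 3.10.9.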

Additional observations from a re-analysis of the deposited data

How the results depend on the processing

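Results were recomputed with 1 choice changed at a time. After further quantile normalization Mef2c was at -0.43 (not called), 3 of the 10 genes were lower and 1 higher, 33 ribosome biogenesis genes lower and 1 higher, 4 MYC-MAX network genes lower and 1 higher, and 5 other MYC targets lower. After cyclic loess Mef2c was at -0.32, with 2 and 1, 29 and 1, 4 and 1, and 2 in the same order. Centred on 8 housekeeping genes, Mef2c was at -0.54, with 2 of the 10 genes lower and 2 higher, 21 ribosome biogenesis genes lower, 4 network genes lower and 5 higher, and 5 other targets lower. In these settings, in the order given, 7.69%, 7.69% and 3.17% of all probe sets were lower and 8%, 6.68% and 45.8% higher. The median of the 10 genes was -0.69, -0.59 and -0.80, against -1.59 in the main fit. Centring on housekeeping genes shifts all values of an array together, by construction. The cause of the other changes was not tested. With a fold of 2 required in signal, Mef2c (-1.34) was not called, 0 ribosome biogenesis genes were higher and 9 other targets lower, while 6 of the 10 genes stayed lower. At an adjusted p of at most 0.10, Mef2c (-1.34) was not called and all counts were 0. With array weights Mef2c was at -1.26, not called. Ribosome biogenesis genes called higher numbered 1 with arrays centred on medians or dim probe sets left out.

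Leaving out 1 array at a time gave -1.48 to -1.20 for Mef2c. The median log2 fold change was then -2.01 to -1.13 for the 10 genes and -1.52 to -1.32 for ribosome biogenesis genes. It was -1.43 to -0.74 for network genes and -1.47 to -1.16 for other targets, against 0.094 to 0.20 over all probe sets. Where a deficient array was left out, the remaining one was assumed to vary like the controls, and 1386 (without replicate 1) and 2524 (without replicate 2) probe sets had an adjusted p of at most 0.05 in limma. With 1 control array left out, 3 of the 5 nucleolar genes were called lower, against 9.08% to 10.2% of all probe sets (5.9% to 7.88% higher). Without deficient replicate 2, Max changed sign (-0.30), as did Myb (0.047). Without deficient replicate 1 they were at 2.05 and -2.40. The unpaired test of the methods called 3 of the 5 nucleolar genes lower, while it called 8.12% of all probe sets lower and 5.75% higher. Replicate numbers 1 and 2 occur in both groups, but deviations of same-numbered arrays correlated at 0.105 and -0.031, so the numbers were not taken as pairs; with the replicate block 6 of the 10 genes were lower, 0 ribosome biogenesis genes were higher and 9.17% of all probe sets were lower.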
